A study of Homo sapiens with 15 samples.

Results

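The ERBB receptors and their EGF-like ligands were examined in H1975 lung adenocarcinoma cells and in their osimertinib-resistant derivative, H1975–OR. The members were chosen by symbol, and all 10 were found among the 19612 genes of the count table: 4 receptors (EGFR, ERBB2, ERBB3, and ERBB4) and 6 ligands (EREG, AREG, HBEGF, TGFA, BTC, and EPGN). Every library, 15 in all, is labelled as carrying EGFR T790M and L858R. Samples 1a, 1b, and 1c were parental H1975 given vehicle. The H1975–OR cells received vehicle (Samples 2a, 2b, and 2c), 100 nM 1,25(OH)2D3 (3a, 3b, and 3c), 500 nM osimertinib (4a, 4b, and 4c), or both agents (5a, 5b, and 5c). 1,25(OH)2D3 is the active hormone form of vitamin D3, and osimertinib is an irreversible inhibitor of mutant EGFR. Treatment lasted 96 h in medium with charcoal-stripped serum, and agents were added at 0, 48, and 92 h. H1975–OR is a single line made by long exposure to osimertinib and was kept in 500 nM of the drug, so its vehicle arm was without osimertinib only for the treatment itself. Parental cells were sequenced with vehicle alone.

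The ERBB proteins are receptor tyrosine kinases that signal as pairs. EGFR binds AREG, EREG, HBEGF, TGFA, BTC, and EPGN, while ERBB4 binds HBEGF, EREG, and BTC together with the neuregulins, which also bind ERBB3. ERBB2 has no known ligand of its own and acts as a partner, and ERBB3 has little kinase activity and passes signals to PI3K through its partners. The ligands are made as membrane proteins and released by metalloproteases, and activated receptors signal through RAS and MAPK and through PI3K and AKT. In lung adenocarcinoma, activating EGFR mutations are a frequent driver, L858R is one of the common ones, and T790M is known for resistance to earlier EGFR inhibitors.

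Library totals lay between 4378033 and 6140025 estimated counts, with a median of 4974768. Levels are given as CPM, counts scaled to a common library total after TMM adjustment. A count of 0 allowed up to 3 counts, or 0.489 to 0.685 CPM, which covers counting error only. Sample 3a was left out of the tests except where it is said to be kept in, and its values are given beside those of Samples 3b and 3c. The study also left it out. RNA of Samples 1a to 3c came from separate passages of the cells, and the sources used here do not say this for Samples 4a to 5c, where the spread between replicates may be technical. All 6 epithelial markers were detected in every group. Of the immune markers, CD3E, which marks T cells, was at 0 in every library. PTPRC was 0.205 to 2.12 CPM and CD68 4.72 to 38.6 CPM over the libraries. The endothelial markers PECAM1, VWF, and CDH5 reached at most 4.19, 0.818, and 11.6 CPM. The lung lineage gene NKX2-1 was expressed in both lines, at 31.9 to 99.0 CPM. The lineage genes NAPSA and SFTPB were low throughout, at no more than 2.25 and 1.90 CPM in any library. NAPSA was at 0 in every library with osimertinib alone. The amounts of RNA per cell and of cells with a transcript cannot be told apart in bulk samples.

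Of the 6 ligand genes, 4 lie together on chromosome 4 in the order EPGN, EREG, AREG, and BTC, within 486.1 kb of GRCh38. The intervals between neighbours are 48.35, 56.39, and 289.8 kb. EREG occupies 74365145 to 74388749 and AREG 74445136 to 74455005 on the forward strand, and BTC lies at 74744759 to 74794523 on the reverse strand. HBEGF lies apart, on chromosome 5 at 140332843 to 140346603, on the reverse strand. EGFR spans 55019017 to 55211628 on chromosome 7, ERBB2 39687914 to 39730426 on chromosome 17, ERBB3 56076799 to 56103505 on chromosome 12, and ERBB4 211375717 to 212538841 on chromosome 2.

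The promoter sequences of EREG, AREG, and HBEGF are shown because these ligands differed most between the lines. Each is the 250 bases before the start of the gene in RefSeq (GRCh38.p14), read 5′ to 3′ on the strand of the gene, at chr4:74364895-74365144 (+) for EREG, chr4:74444886-74445135 (+) for AREG, and chr5:140346604-140346853 (−) for HBEGF. RefSeq promoters were found for 9 of the 10 members, ERBB3 being the exception. Capitals mark letters of the motifs searched, on both strands.
EREG: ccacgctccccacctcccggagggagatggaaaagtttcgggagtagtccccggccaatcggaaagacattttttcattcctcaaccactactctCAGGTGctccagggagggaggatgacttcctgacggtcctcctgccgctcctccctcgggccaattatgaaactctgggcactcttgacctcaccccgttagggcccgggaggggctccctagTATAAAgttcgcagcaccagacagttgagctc
AREG: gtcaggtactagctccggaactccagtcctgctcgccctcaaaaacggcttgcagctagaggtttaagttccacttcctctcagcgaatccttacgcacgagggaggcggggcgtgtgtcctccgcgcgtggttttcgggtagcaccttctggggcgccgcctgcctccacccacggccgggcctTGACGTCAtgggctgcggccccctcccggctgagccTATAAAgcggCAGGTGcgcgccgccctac
HBEGF: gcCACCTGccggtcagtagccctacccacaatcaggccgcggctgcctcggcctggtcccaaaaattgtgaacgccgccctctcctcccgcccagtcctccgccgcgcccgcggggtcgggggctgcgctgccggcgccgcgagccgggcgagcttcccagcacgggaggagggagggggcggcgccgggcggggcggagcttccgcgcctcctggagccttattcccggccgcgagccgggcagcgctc

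AREG carried the cAMP response element TGACGTCA 65 bases before its start, a motif present in 1.65% of 35116 promoters of the same length. The TATA box TATAAA stood 32 bases before the start in EREG and 29 in AREG, and was present in 10.7% of promoters. The E-box CAGGTG, which ZEB and SNAI factors can bind, stood at 155 bases in EREG and 19 in AREG, and its reverse complement at 248 bases in HBEGF. It was present in 17.5% of promoters. The AP-1 motif TGANTCA, present in 6.57% of promoters, was in none of the 3 sequences. These matches describe the letters of the window and were not tested against expression.

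The first comparison was between vehicle-treated H1975–OR and H1975, which differ in their response to osimertinib. The resistant line had far less ERBB3, EREG, and AREG mRNA, 7.30-fold more HBEGF, and a low level of ERBB4, which had no counts in the parental line. By edgeR's quasi-likelihood test after Benjamini-Hochberg adjustment over 12513 genes, 5 of the 9 members tested had an adjusted p under 0.05, of which 2 were higher and 3 lower. Over all genes tested 20.1% passed, with 9.89% higher and 10.3% lower. EGFR, ERBB2, TGFA, and BTC did not pass, and EPGN was removed by the filter on low counts. The median log2 fold change was −0.96 over the 9 members and 0.01 over all genes tested.

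EGFR stood at 215, 202, and 312 CPM in H1975 and at 103, 178, and 174.5 CPM in H1975–OR. The groups did not overlap, with means of 243 ± 59.9 and 152 ± 42.2 CPM (SD, n = 3). The log2 fold change was −0.66 (SE 0.23, adjusted p = 0.0785 by edgeR). With DESeq2, which called 24.3% of all genes, EGFR passed (log2 fold change −0.68, adjusted p = 0.0255). ERBB2, the partner without a ligand, was 85.9, 118, and 129 CPM in H1975 and 101, 159, and 109 CPM in H1975–OR. These groups overlapped, with a log2 fold change of 0.17 (SE 0.22, edgeR adjusted p = 0.624).

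ERBB3, the receptor for neuregulins, was 19.1, 47.4, and 97.1 CPM in the parental libraries. In H1975–OR it was 0.614, 3.10, and 0.578 CPM, at or near the floor in Samples 2a and 2c. ERBB3 fell by 5.22 on the log2 scale (SE 0.85, edgeR adjusted p = 0.00461). The size of this fall depended on single libraries, at −4.53 without Sample 1c and −6.44 without Sample 2b. ERBB4 had no count in any parental library and 10, 17, and 21 counts, or 2.05, 3.52, and 4.05 CPM, in H1975–OR. Against the floor of 3 counts per library it was at least 5.73-fold higher (edgeR adjusted p = 0.00827).

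**Figure D1:**
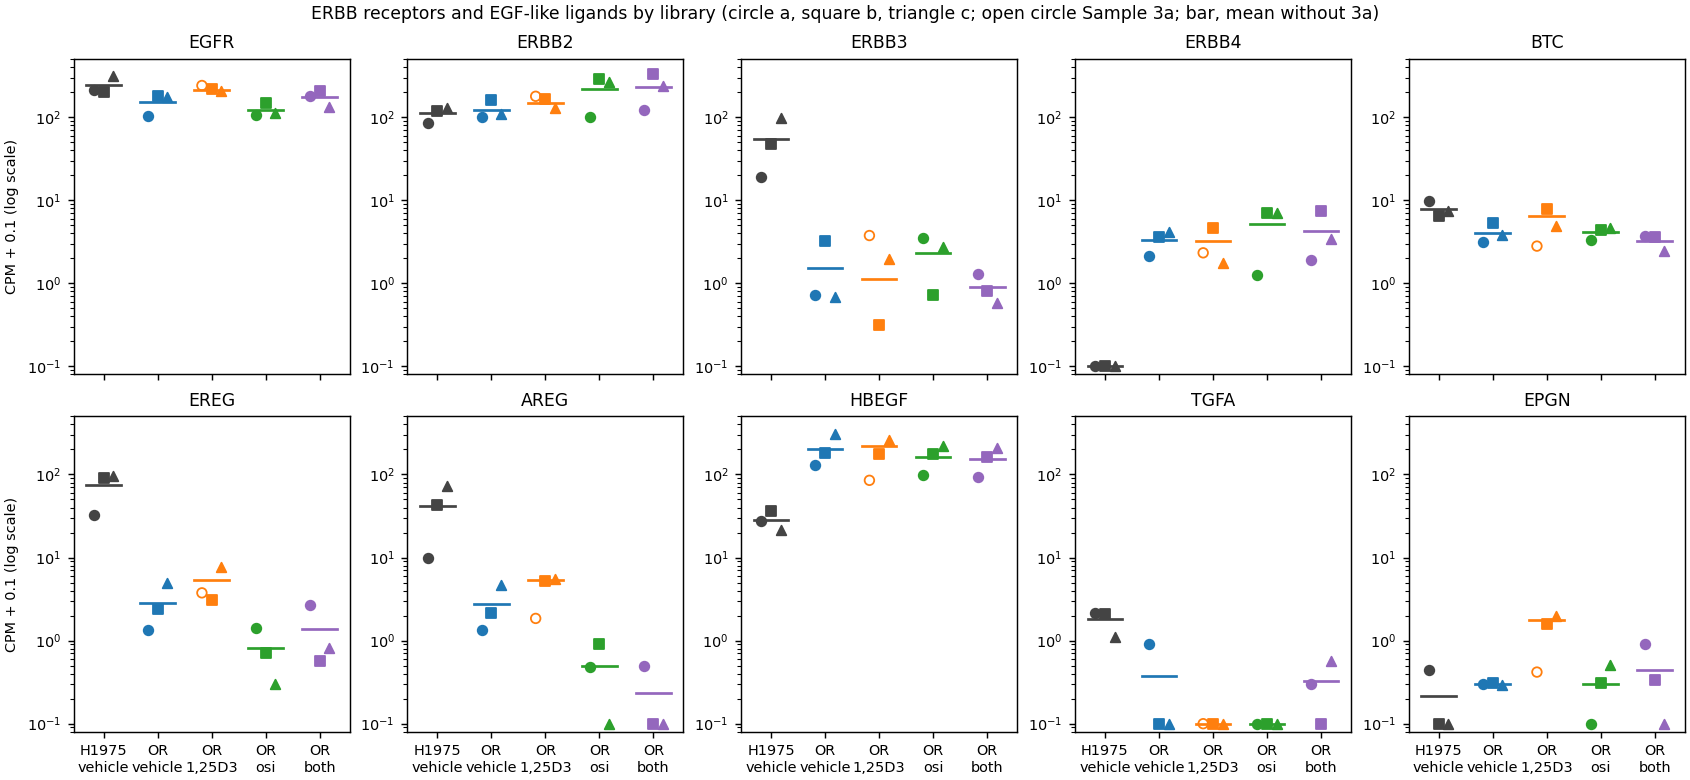
Level of each member in every library, as CPM + 0.1 on a log axis, for vehicle-treated H1975 and for H1975–OR (OR) with vehicle, 1,25(OH)2D3 (1,25D3), osimertinib (osi), or both. Symbols give the replicate letter, bars the group means without Sample 3a, and the open circle Sample 3a. ERBB3, EREG, and AREG are high only in the H1975 libraries, HBEGF and ERBB4 are higher in every H1975–OR library than in any H1975 library, and AREG is lowest with osimertinib.

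HBEGF, a heparin-binding ligand of EGFR and ERBB4, was 27.4, 36.1, and 21.6 CPM in H1975. It was 129, 179.9, and 306 CPM in H1975–OR, where even the lowest library was above all parental ones. The log2 fold change was 2.87 (SE 0.34, adjusted p = 0.00133 by edgeR), the difference with the smallest p among the members. EREG, epiregulin, was 32.7, 91.0, and 97.1 CPM in H1975 and 1.23, 2.28, and 4.82 CPM in H1975–OR. It fell by 4.69 on the log2 scale (SE 0.61, edgeR adjusted p = 0.0018), and the log2 fold change was −5.36 without Sample 2c. AREG, amphiregulin, was 9.88, 43.0, and 72.5 CPM in H1975 and 1.23, 2.07, and 4.63 CPM in H1975–OR. It fell by 3.94 (SE 0.74, edgeR adjusted p = 0.00814), and the log2 fold change was −3.31 without Sample 1c and −4.62 without Sample 2c. Neither of these ligands overlapped between the lines.

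BTC, betacellulin, was 9.70, 6.38, and 7.33 CPM in H1975 and 3.07, 5.17, and 3.66 CPM in H1975–OR. No library overlapped, but the log2 fold change of −0.96 (SE 0.39) had an edgeR adjusted p of 0.12. TGFA, a ligand of EGFR alone, was 2.08, 2.00, and 1.02 CPM in H1975. In H1975–OR it was 0.818 CPM in Sample 2a and 0 in the others, with a log2 fold change of −2.54 (SE 1.20) and an edgeR adjusted p of 0.177. Without Sample 2a the adjusted p was 0.0421 (log2 fold change −6.17). EPGN, epigen, had 2 counts in all the H1975 libraries and 3 in all the H1975–OR libraries, at or under the floor. Of the 9 members tested, 2 were higher and 6 lower without overlap of the libraries, where 19% of all genes were higher and 20.3% lower in this sense.

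ERBB3, EREG, and AREG were each lowest in Sample 1a among the parental libraries, and so were the epithelial markers EPCAM, CDH1, KRT7, and KRT19, whereas KRT8 and KRT18 were lowest in Sample 1c. EPCAM, CDH1, KRT7, and KRT19 were also below every parental library in all vehicle-treated H1975–OR libraries. KRT8 overlapped between the lines, at 414 to 507 and 316 to 675 CPM, and KRT18 was above every parental library, at 2336 to 2554 CPM against 1779 to 2046 CPM. EPCAM was 75.0, 173, and 207 CPM in H1975 and 9.31 to 12.7 CPM in vehicle-treated H1975–OR, and CDH1 was 108, 239, and 384 CPM against 5.21 to 9.41 CPM. The summed level of the 6 epithelial markers was 4567 to 5885 CPM in H1975 and 3539 to 3903 CPM in H1975–OR. That of 4 mesenchymal markers was 3161 to 3550 and 2986 to 4275 CPM. Of these, VIM was 3032, 2608, and 2201 CPM in H1975 and 2911, 3927, and 4192 CPM in H1975–OR. ZEB1 was 8.14, 1.82, and 1.22 CPM in H1975 and 9.41, 51.3, and 31.4 CPM in H1975–OR, above every parental library. FN1 was 50.7 to 958 CPM and CDH2 at most 2.12 CPM over all libraries, and neither is split by line here. The part of the epithelial state in the levels of the receptors and ligands was not tested.

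**Figure D2:**
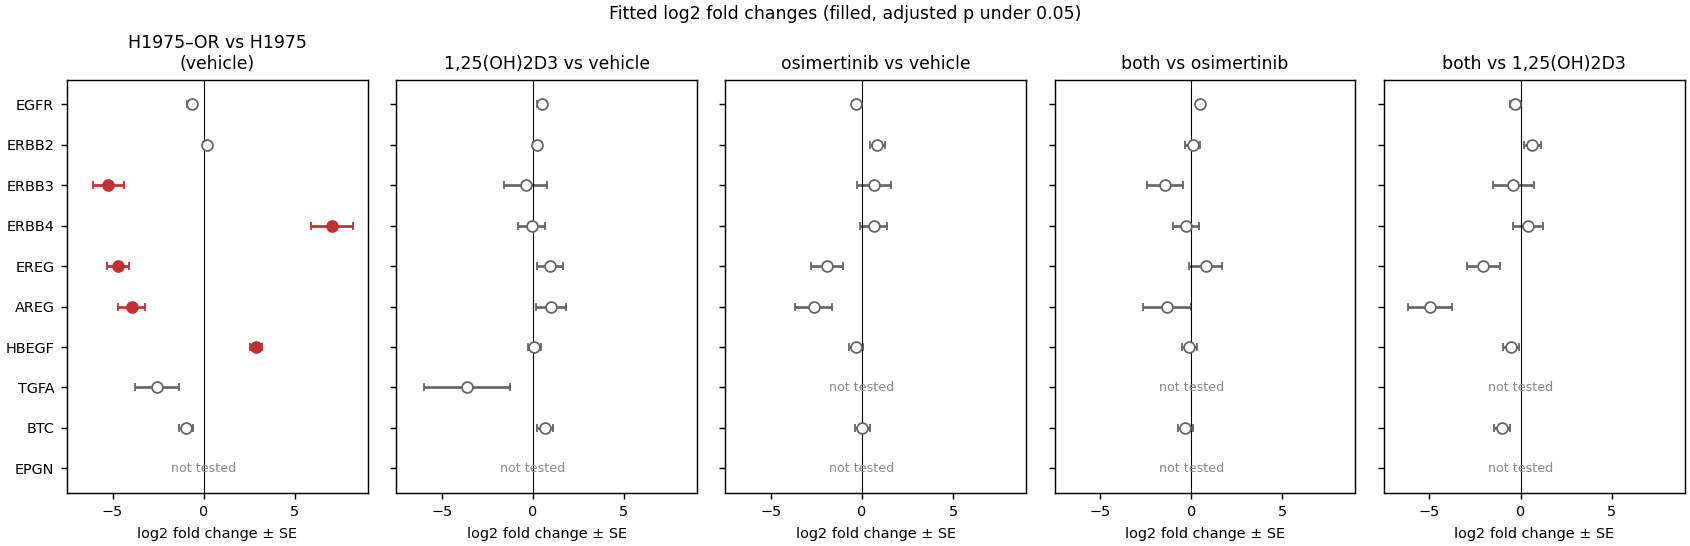
Log2 fold change ± SE of each member in 5 comparisons, with filled symbols for an adjusted p under 0.05 by edgeR's quasi-likelihood test. Only the comparison of H1975–OR with H1975 has filled symbols, for ERBB3, ERBB4, EREG, AREG, and HBEGF. The plotted ERBB4 change between the lines, from parental counts of 0, and the TGFA change with 1,25(OH)2D3 depend on the prior count of the fit. AREG and EREG lie to the left of 0 in both comparisons that add osimertinib.

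Per kilobase of the canonical transcript, the order of the members differed between the lines. In H1975, EGFR (24.5 CPM per kb) and ERBB2 (24.3) overlapped and were above ERBB3 (9.71). In vehicle-treated H1975–OR, ERBB2 (27.0 CPM per kb) was above EGFR (15.3) in non-overlapping libraries, while ERBB4 (0.265) and ERBB3 (0.255) overlapped. In CPM, EGFR was above ERBB2 in each of these libraries. The order per kb came from the canonical lengths, 9905 bases for EGFR and 4557 for ERBB2. Orders and shares per kb depend on such lengths, and the transcripts expressed were not examined. Of the summed receptor level per kb, ERBB2 made up 36.7% to 47.2% in H1975 and 57.1% to 67.4% in H1975–OR. ERBB3 made up 7.72% to 22.5% in H1975 and no more than 1.03% in vehicle-treated H1975–OR.

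Among the ligands of H1975, AREG (33.9 CPM per kb), EREG (16.0), and HBEGF (12.02) overlapped as neighbours in that order, and BTC (2.94), TGFA (0.413), and EPGN (0.0431) followed without overlap. In vehicle-treated H1975–OR, HBEGF (87.0 CPM per kb) stood far above AREG (2.14), which overlapped with BTC (1.496). HBEGF made up 9.95% to 37.5% of the summed ligand level in H1975 and 94.8% to 95.4% in H1975–OR. The summed ligand level itself overlapped, at 31.0 to 91.9 CPM per kb in H1975 and 57.5 to 136 CPM per kb in H1975–OR.

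**Figure D3:**
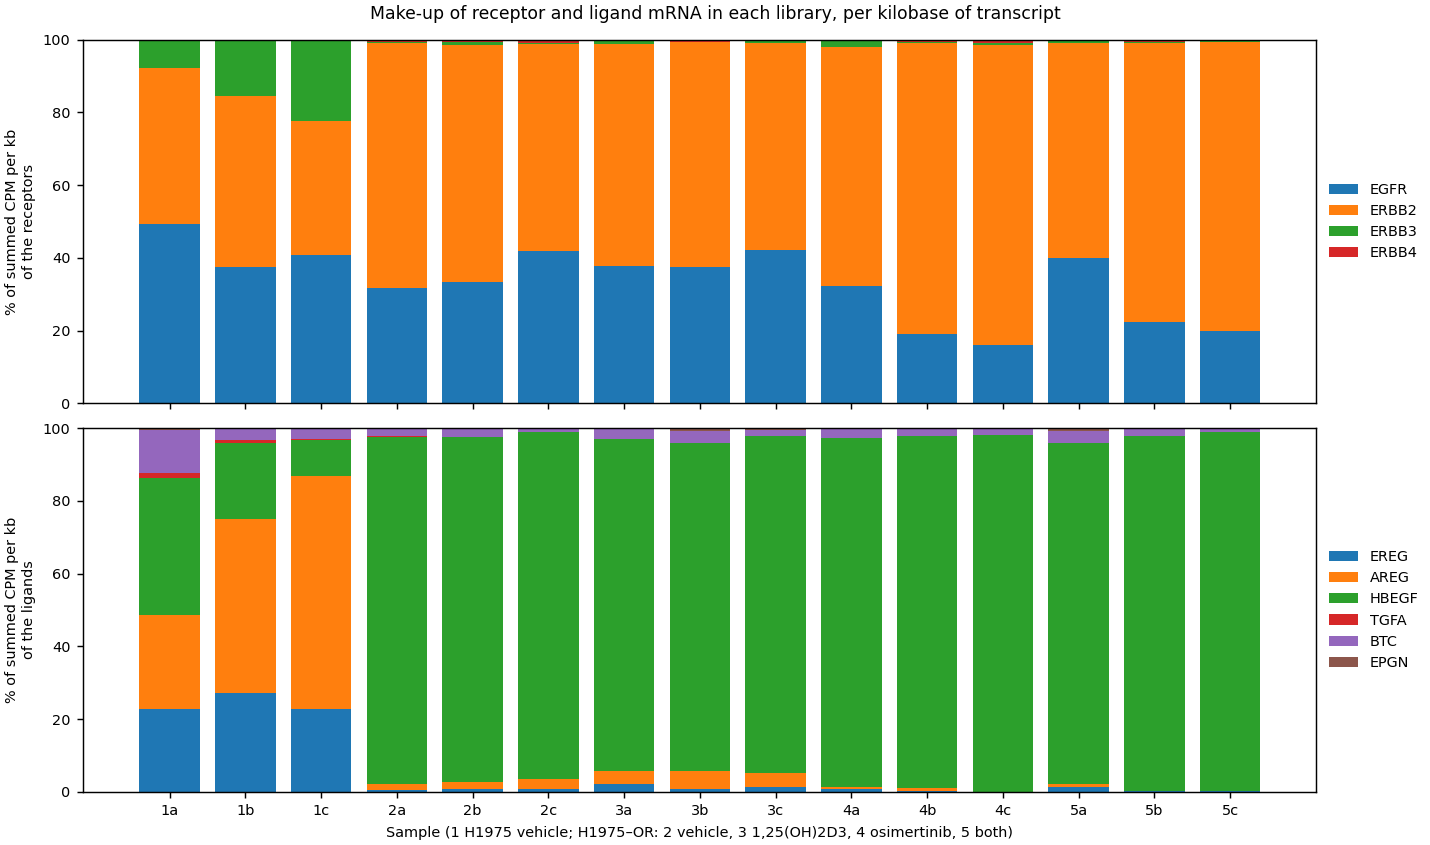
Share of each member in the summed CPM per kb of the 4 receptors (upper bars) and the 6 ligands (lower bars) in each library. AREG, EREG, and HBEGF share the ligand bars of Samples 1a to 1c, and HBEGF fills at least 90.05% of the bars of H1975–OR in the libraries that were tested. ERBB2 takes a larger share of the receptor bars in Samples 4b, 4c, 5b, and 5c than in 4a and 5a.

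The second comparison asked how 1,25(OH)2D3 changed H1975–OR cells. No member passed, 0 of 9 tested, by edgeR's quasi-likelihood test after Benjamini-Hochberg adjustment, where 0.152% of all genes did. At an unadjusted p under 0.05 there were also 0 members, and DESeq2 called 0, with 0.991% of all genes. ERBB3, ERBB4, EREG, and HBEGF, which passed between the lines, overlapped between hormone and vehicle. The median log2 fold change was 0.25 over the members and −0.01 over all genes tested.

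EGFR was 220.0 and 204 CPM in Samples 3b and 3c, above the 103, 178, and 174.5 CPM of the vehicle libraries, and 240.3 CPM in Sample 3a. The log2 fold change without Sample 3a was 0.48 (SE 0.26, edgeR adjusted p = 0.756). That fit kept Sample 2a, the lowest vehicle library, although Sample 3a, of the same letter, was left out. The value was 0.36 (SE 0.22) with the replicate letter as a block and 0.26 (SE 0.22) without the libraries of letter a. AREG was 5.16 and 5.39 CPM in Samples 3b and 3c, again above the vehicle libraries, but 1.75 CPM in Sample 3a, within their range. Its log2 fold change was 0.98 (SE 0.82), 0.55 (SE 0.40) with the block, and 0.65 (SE 0.94) without letter a. EGFR and AREG were the 2 tested members without overlap, both higher, as were 13.1% of all genes. EREG was 3.01 and 7.62 CPM, HBEGF 177 and 257 CPM, and BTC 7.73 and 4.83 CPM in Samples 3b and 3c, all overlapping with vehicle. In Sample 3a, EREG was 3.66 CPM, within the vehicle range, while HBEGF (84.9 CPM) and BTC (2.70 CPM) were below every vehicle library. The log2 fold changes without Sample 3a were 0.94 for EREG (SE 0.69), 0.08 for HBEGF (SE 0.35), and 0.66 for BTC (SE 0.43).

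ERBB3 was 0.215 and 1.86 CPM in Samples 3b and 3c, overlapping with vehicle, and 3.66 CPM in Sample 3a, above every vehicle library. Of the epithelial markers in Samples 3b and 3c, CDH1 (108 and 152 CPM), KRT7 (629 and 850 CPM), and KRT19 (493 and 615 CPM) were above every vehicle library. EPCAM (7.52 and 7.25 CPM) and KRT18 (1974 and 2240 CPM) were below every vehicle library, and KRT8 (303 and 396 CPM) overlapped with vehicle. In Sample 3a, KRT19 was 349 CPM, within the vehicle range, and KRT8 was 857 CPM, above every vehicle library. CDH1 (106 CPM) and KRT7 (1034 CPM) were above, and EPCAM (9.23 CPM) and KRT18 (2011 CPM) below, every vehicle library in Sample 3a too. ERBB2 (log2 fold change 0.25, SE 0.24) and ERBB4 (−0.06, SE 0.73) in Samples 3b and 3c also overlapped with vehicle. In Sample 3a, ERBB2 was 178.2 CPM, above every vehicle library, and ERBB4 was 2.23 CPM, within the vehicle range. EPGN, which the filter on low counts removed, had 17 counts in Samples 3b and 3c and 3 counts in the vehicle libraries. After scaling the ratio was 8.42, with an exact 95% counting interval of 2.43 to 44.8. Such an interval takes the summed counts of each group and leaves out the spread between libraries. EPGN levels were 1.504 and 1.86 CPM in Samples 3b and 3c and 0.318 CPM in Sample 3a. Tested without the filter, its log2 fold change was 2.93 (unadjusted p = 0.0318, edgeR adjusted p = 0.723). Its mean of 0.627 CPM per kb was the lowest of the ligands with counts. TGFA had no counts in Samples 3a, 3b, and 3c.

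The third comparison concerned osimertinib in H1975–OR, the drug to which these cells had become resistant. None of the 8 members tested passed, 0 by edgeR's quasi-likelihood test after Benjamini-Hochberg adjustment and 0 by DESeq2, where edgeR called 0.048% and DESeq2 0.936% of all 12503 genes. AREG was the 1 member with an unadjusted p under 0.05, where 453 of all genes were higher and 488 lower. The median log2 fold change was −0.15 over the members and 0.01 over all genes tested.

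AREG was 0.380, 0.819, and 0 CPM with osimertinib, below every vehicle library (1.23, 2.07, and 4.63 CPM). The groups did not overlap, as for 6.81% of genes in this direction, and the log2 fold change was −2.65 (SE 1.01, edgeR adjusted p = 0.567). This rested on 6 counts with the drug and 40 with vehicle, and the log2 fold change ran from −3.59 to −1.97 over 19 alternatives, the ends being without Sample 4b and without Sample 2c. EREG was 1.33, 0.614, and 0.205 CPM, of which Sample 4a lay within the vehicle range. Its log2 fold change was −1.90 (SE 0.88, edgeR adjusted p = 0.672), with a range of −3.04 to −1.24 over the alternatives, the latter without Sample 2c. EREG had 11 counts with the drug and 42 with vehicle. HBEGF was 98.4, 176, and 217 CPM, overlapping with vehicle (log2 fold change −0.32, SE 0.39).

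ERBB2 was 100.5, 284, and 264 CPM with osimertinib against 101, 159, and 109 CPM with vehicle. Samples 4b and 4c were above every vehicle library and Sample 4a was below them all, and the log2 fold change was 0.82 (SE 0.41, edgeR adjusted p = 0.72). EGFR, the target of the drug, was 107, 147, and 111 CPM, overlapping with vehicle (log2 fold change −0.32, SE 0.23, edgeR adjusted p = 0.854). ERBB4 was 1.14, 6.96, and 6.95 CPM, again low in Sample 4a and higher in the others (log2 fold change 0.64, SE 0.74). ERBB3 was 3.43, 0.614, and 2.66 CPM and BTC 3.24, 4.30, and 4.50 CPM, both overlapping with vehicle.

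Adding 1,25(OH)2D3 to osimertinib left no member past the threshold, 0 of 8 by edgeR's quasi-likelihood test after Benjamini-Hochberg adjustment and 0 by DESeq2. Of all genes, edgeR called 0.096% and DESeq2 0.528%, and 0 members had an unadjusted p under 0.05. EGFR was 179.7, 207, and 131 CPM with both agents, partly above the 107, 147, and 111 CPM with osimertinib alone. Its log2 fold change was 0.49 (SE 0.23), next to 0.48 (SE 0.26) for the hormone without osimertinib. Without the libraries of letter a these values were 0.38 (SE 0.22) and 0.26 (SE 0.22). The difference of the 1,25(OH)2D3 effects was 0.01 (SE 0.35) for EGFR. For that difference 0 of 8 members, and 0% of all genes, passed edgeR's test, with 0 members at an unadjusted p under 0.05. DESeq2 called 0 members and 0.088% of all genes.

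Adding osimertinib to 1,25(OH)2D3 gave the lowest mean AREG level, but its libraries overlapped with those of osimertinib alone. Against osimertinib alone, 2 counts against 6 gave a ratio of 0.372, with an exact 95% counting interval of 0.0367 to 2.08. AREG was 0.401, 0, and 0 CPM with both agents, against 5.16 and 5.39 CPM in Samples 3b and 3c and 1.75 CPM in Sample 3a. The 2 counts against 53 gave a ratio of 0.0281 after scaling, with an exact 95% counting interval of 0.00332 to 0.107. Both counting intervals leave out the spread between libraries. For AREG with both agents against 1,25(OH)2D3, the edgeR adjusted p was 0.146. By DESeq2 the adjusted p was 0.0209 (log2 fold change −5.19), and with the quasi-dispersions of edgeR 4 it was 0.0465 (log2 fold change −4.94), so the call depended on the test. These called 2.63% and 0.432% of all genes. Over all alternatives of this value the adjusted p ran from 0.0209 to 0.524.

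No member passed this comparison by edgeR's quasi-likelihood test after Benjamini-Hochberg adjustment, 0 of 8, where 0.256% of all genes did. EREG, AREG, and BTC had an unadjusted p under 0.05, 3 in all, and each was lower without overlap, as 15.4% of all genes were. At that unadjusted threshold, 731 of all 12503 genes were lower and 721 higher. EREG was 2.61, 0.470, and 0.708 CPM with both agents and 3.01 and 7.62 CPM with the hormone (log2 fold change −2.04, SE 0.90, edgeR adjusted p = 0.423). BTC was 3.61, 3.53, and 2.36 CPM against 7.73 and 4.83 CPM (log2 fold change −0.99, SE 0.44, edgeR adjusted p = 0.424), but 2.70 CPM in Sample 3a, within the range with both agents. HBEGF was 92.7, 161, and 207 CPM with both agents and overlapped with every other H1975–OR group.

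Within the H1975–OR arms the replicate letters varied together for some members. HBEGF was lowest in letter a in each of the 4 treatment groups, at 129 CPM with vehicle, 84.9 with 1,25(OH)2D3, 98.4 with osimertinib, and 92.7 with both, and highest in letter c. ERBB2 was lowest in letter a with vehicle, osimertinib, and both agents. Between osimertinib and vehicle, the ERBB2 level had a ratio of 0.996 in letter a, 1.79 in letter b, and 2.42 in letter c. With the replicate letter as a block, ERBB2 had an unadjusted p of 0.00806 and an adjusted p of 0.19 in edgeR (log2 fold change 0.71, SE 0.20). With the block, 5 members were called between the lines, where 17.2% of all genes were. It gave 0 members in the other comparisons, where it called 0.0719% of genes for 1,25(OH)2D3 and 0.28% for osimertinib against vehicle, 0.264% for both agents against osimertinib, 1.46% for both against 1,25(OH)2D3, and 0% for the difference of effects. Without the libraries of letter a, an alternative added after seeing the data, the log2 fold change was 1.03 (SE 0.23, edgeR adjusted p = 0.118).

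EGFR was higher with 1,25(OH)2D3 in 3 of 3 letters without osimertinib, at ratios of 2.33, 1.24, and 1.17, and in 3 of 3 with it, at 1.68, 1.41, and 1.18. The first of these ratios came from Sample 3a. AREG was lower with osimertinib in 3 of 3 letters, both against vehicle and when added to 1,25(OH)2D3. HBEGF was lower with osimertinib than with vehicle in 3 of 3 letters, at ratios of 0.761, 0.980, and 0.710. The same held with 1,25(OH)2D3 against vehicle (0.657 from Sample 3a, 0.985, and 0.840) and with both agents against osimertinib (0.942, 0.915, and 0.952). ERBB2, EREG, AREG, and EPGN were also higher with 1,25(OH)2D3 than with vehicle in 3 of 3 letters. For ERBB2 the ratios were 1.77 from Sample 3a, 1.045, and 1.16. EGFR and EREG were lower in 3 of 3 when osimertinib was added to 1,25(OH)2D3. In every comparison here that involves 1,25(OH)2D3 alone, including that of AREG, the library of letter a is Sample 3a, which the tests left out. The share of all genes that moved alike in all letters is not given here. With the letter as a block, HBEGF with osimertinib against vehicle had a log2 fold change of −0.30 (SE 0.10), with an unadjusted p of 0.0143 and an edgeR adjusted p of 0.231. In the same blocked fit, EGFR with both agents against osimertinib was 0.50 (SE 0.19), with an unadjusted p of 0.0281 and an edgeR adjusted p of 0.528.

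**Figure D4:**
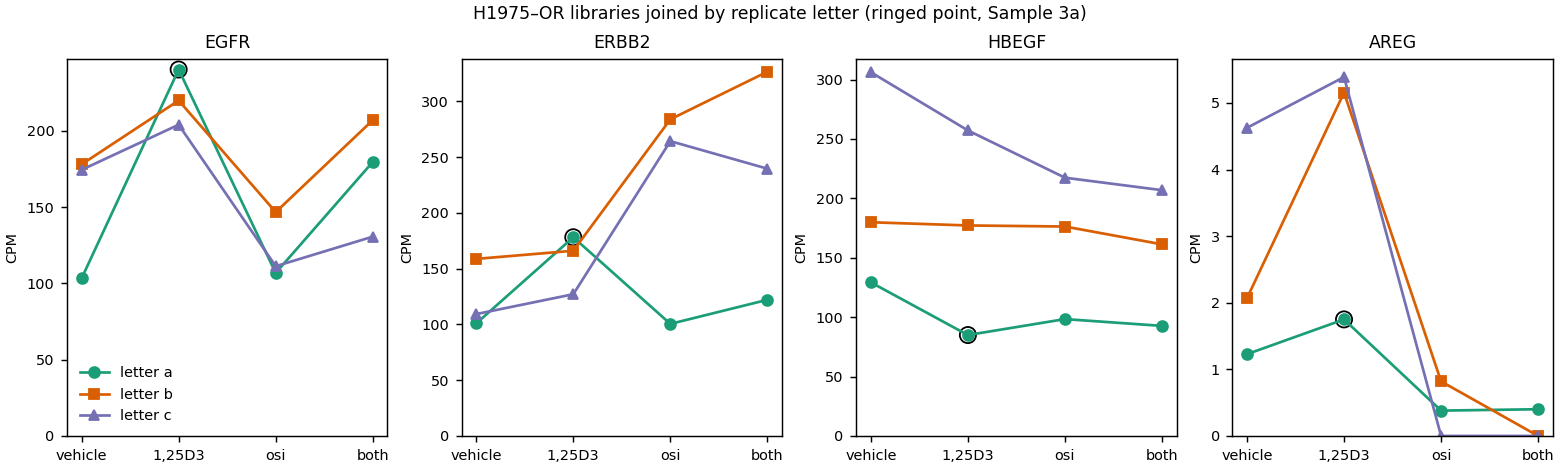
CPM of EGFR, ERBB2, HBEGF, and AREG in the H1975–OR libraries, with the 4 treatments (vehicle, 1,25(OH)2D3, osimertinib, both) joined by replicate letter and Sample 3a ringed. HBEGF is ordered a, b, c in every treatment, ERBB2 is higher with osimertinib in letters b and c only, and AREG is below 0.9 CPM in every osimertinib-treated library.

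The other genes of the pathway were taken from lists of general knowledge. Between H1975–OR and H1975, 0 of 9 genes for ligand release passed edgeR's test, with 1 at an unadjusted p under 0.05 and 0 by DESeq2. Of EGF and the neuregulins, 2 of 5 could be tested, and 0 passed edgeR's test, with 1 at an unadjusted p under 0.05 and 1 by DESeq2, both lower. Over all 12513 genes, 2195 were higher and 2132 lower at an unadjusted p under 0.05, and DESeq2 called 24.3%. Of 15 genes that attenuate receptors, 2 were higher and 1 lower, beside 9.89% and 10.3% of all genes tested. LRIG1, which promotes the degradation of ERBB receptors, was 41.5 ± 12.8 CPM in H1975–OR and 16.7 ± 3.82 CPM in H1975 (SD, n = 3; log2 fold change 1.32, edgeR adjusted p = 0.0102). PTPRJ, a receptor phosphatase, had a log2 fold change of 0.88 (edgeR adjusted p = 0.00565), and SH3KBP1, an adaptor of receptor endocytosis, one of −0.69 (edgeR adjusted p = 0.0111).

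Of 24 adaptors and kinases, 3 were higher and 1 lower in H1975–OR, again beside 9.89% and 10.3% of all genes. PIK3R1, the regulatory subunit of PI3K, was 122 ± 33.4 CPM against 25.8 ± 5.66 CPM (SD, n = 3; log2 fold change 2.25, edgeR adjusted p = 0.000716). SOS2, an exchange factor for RAS, had a log2 fold change of 0.64 and AKT1 one of −0.73, with edgeR adjusted p of 0.00976 and 0.00824. Of 20 genes induced by MAPK signaling, 5 were higher and 4 lower, where 20.1% of all genes passed in either direction. The phosphatase gene DUSP4 (log2 fold change −1.64, edgeR adjusted p = 0.00182) and PHLDA1 (−1.5, adjusted p = 0.00331) were lower, while the ephrin receptor EPHA4 (2.30, adjusted p = 0.00154) and the transcription factor ETV1 (1.51, adjusted p = 0.0487) were higher. The call of ETV1 held in 6 of 17 alternatives, with an adjusted p of 0.124 to 0.153 without any one of Samples 1b, 1c, 2b, and 2c, and 0.0713 to 0.0715 without Sample 3b or 3c. This list had a median log2 fold change of 0.26 against 0.01 over all genes tested.

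With osimertinib, 17 of the 20 MAPK-induced genes had a negative log2 fold change against vehicle and the median was −0.52. None passed edgeR's adjusted threshold, 0 of 20, while 7 had an unadjusted p under 0.05, all lower, and DESeq2 called 1, lower. Over all 12503 genes tested, 488 were lower at an unadjusted p under 0.05, and DESeq2 called 0.936% in either direction. When osimertinib was added to 1,25(OH)2D3 the median was −0.73, with 17 of 20 negative. There 0 of the 20 passed edgeR's test, with 7 at an unadjusted p under 0.05, of which 6 were lower, and 3 by DESeq2. Of all 12503 genes, 731 were lower and 721 higher at an unadjusted p under 0.05 there, and DESeq2 called 2.63%. ERRFI1, an inducible inhibitor of EGFR on the attenuation list, was the gene of the 5 lists that passed there, at 134.5 ± 17.8 CPM (SD, n = 3) with both agents and 445 ± 37.9 CPM (SD, n = 2) with the hormone (log2 fold change −1.73, edgeR adjusted p = 0.0392). In Sample 3a it was 189.8 CPM. Its call held in 11 of 21 alternatives, and the adjusted p was 0.203 with Sample 3a kept in and 0.0573 to 0.22 without any one of Samples 2b, 3b, 3c, 4a, 4b, 4c, 5a, 5b, and 5c. In the osimertinib libraries ERRFI1 was 107 to 125 CPM, below all vehicle libraries (203 to 443 CPM), with a log2 fold change of −1.44 (SE 0.24, edgeR adjusted p = 0.103). With 1,25(OH)2D3 against vehicle, 0 of the 70 genes tested in the lists passed edgeR's test, with 5 at an unadjusted p under 0.05 and 0 by DESeq2. Of all 12513 genes, 456 were higher and 454 lower at that unadjusted threshold. When 1,25(OH)2D3 was added to osimertinib the list counts were 0 by edgeR, 4 unadjusted, and 0 by DESeq2. Unadjusted, 259 of all 12503 genes were higher and 261 lower there.

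**Figure D5:**
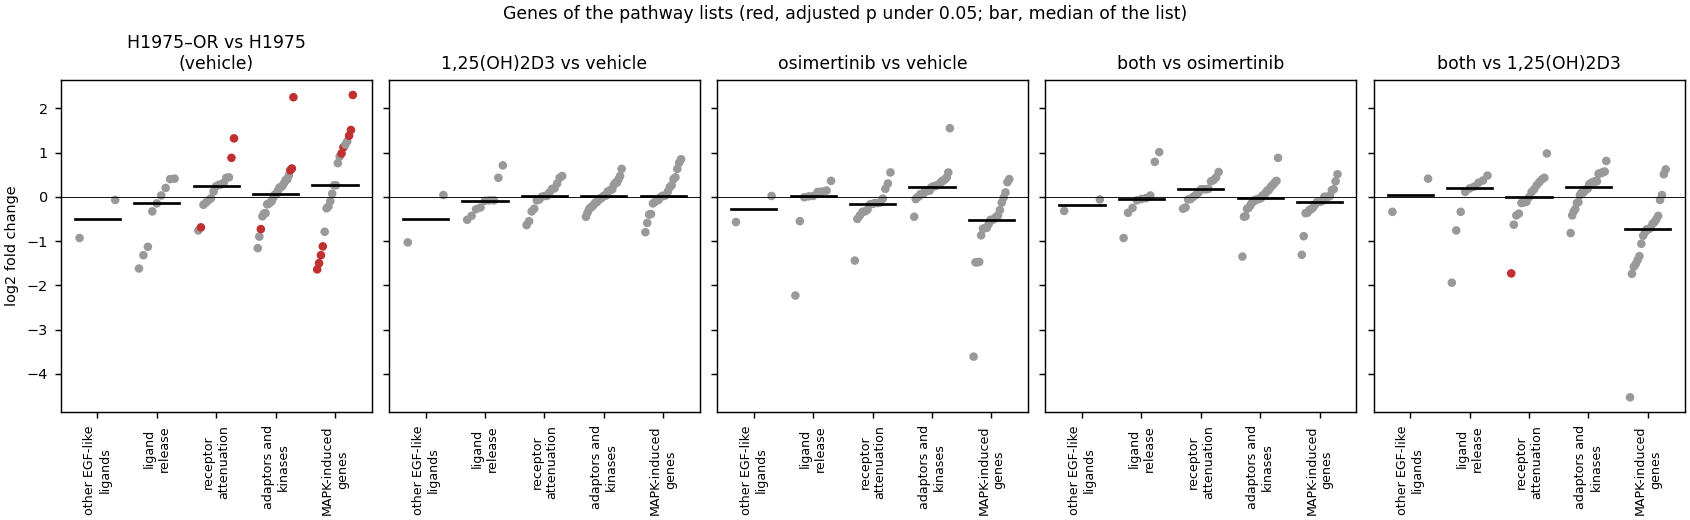
Log2 fold changes of the tested genes of 5 pathway lists in 5 comparisons, with red points for an adjusted p under 0.05 by edgeR's quasi-likelihood test and a bar at the median of each list. Red points are seen for H1975–OR against H1975 and for ERRFI1 in the last panel, and the MAPK-induced genes have medians of −0.52 and −0.73 in the comparisons that add osimertinib.

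Over the 14 libraries other than 3a, the genes most like EGFR in pattern were C15orf39 (Pearson r = 0.923 of log2(CPM + 2)), MPRIP (0.904), TOP1 (0.876), SPRED2 (0.873), and HIF1A (0.864), among 9428 genes with a mean of at least 10 CPM. SPRED2 is an inhibitor of the MAPK pathway and also on the list of genes that MAPK signaling induces. Those most like HBEGF were RPL27A (0.983), RPS20 (0.981), TCEAL8 (0.977), COPB1 (0.976), and RPL11 (0.975), of which RPL27A, RPS20, and RPL11 encode ribosomal proteins. These correlations describe libraries that share cell line, treatment, and replicate letter, and carry no test.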

How the data were processed

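Stranded total RNA libraries of 15 samples were sequenced. As deposited, the values are estimated counts per gene, made by the authors with kallisto and summed from transcripts with tximport, without scaling. The submitters' processing notes list CASAVA 1.8.2, STAR 2.5.2b, kallisto 0.43.0, and GRCh38, and the transcript annotation is not given in the sources used here. Kallisto divides reads among similar transcripts, so low values are estimates. Totals were 4378033 to 6140025 counts, which sets the floors of 3 counts.

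Rounded counts were tested with edgeR 4.0.16 (R 4.3.3). The filterByExpr function, given the groups, selected genes (minimum count 10, minimum total 15), TMM factors scaled the libraries, and contrasts between groups used the quasi-likelihood test, two-sided, with Benjamini-Hochberg adjustment at 0.05. One fit of 8 libraries (12513 genes) served the line and hormone comparisons, and one of 11 H1975–OR libraries (12503 genes) the others. Sample 3a entered neither fit and was kept in only as an alternative. Groups followed the sample titles. The members and lists were chosen with earlier results of these data known. Named genes were the members, up to 2 genes per list and direction with an adjusted p under 0.05 and a mean of at least 50 counts, and the 5 genes most alike to EGFR and to HBEGF. Transcript lengths and coordinates came from GENCODE release 44. The test was tried on simulated data.

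Results were recomputed with DESeq2 1.42.0, with RLE scaling, without the filter, with a minimum of 10 counts in each library, with Sample 3a, with the replicate letter as a block, with other sets of libraries in the fit, and without each library in turn. Other alternatives were added after the data had been seen: the hormone effect in the 11 libraries, the quasi-dispersions of edgeR 4, and no libraries of letter a. Among H1975–OR groups with 3 libraries, 9 of 9 pairs of libraries with the same letter deviated together (correlation over 0.1, at 0.118 to 0.464). Of the pairs with different letters, 1 of 18 did. The letters were therefore taken to pair those groups, although pairs of libraries within these groups are not independent. With the hormone group included, a correlation over 0.1 held in 12 of 15 pairs with the same letter (lowest −0.001), and with H1975 in 0 of 11. The pairing comes from the data and not from the labels.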

Additional observations from a re-analysis of the deposited data

Results flagged for a closer look

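Sample 3a, given 1,25(OH)2D3 and left out of the tests except in the alternative that kept it, was above every vehicle-treated H1975–OR library in 3 receptors. EGFR was 240.3 CPM in Sample 3a, against at most 178 CPM with vehicle, and 204 to 220.0 CPM in Samples 3b and 3c. ERBB2 was 178.2 CPM, against at most 159 CPM with vehicle, and 127 to 166 CPM in Samples 3b and 3c. ERBB3 was 3.66 CPM, against at most 3.10 CPM with vehicle, and 0.215 to 1.86 CPM in Samples 3b and 3c. Groups of 3 libraries were too small for a check of single libraries.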

How the results depend on the processing

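The differences in ERBB3, ERBB4, EREG, AREG, and HBEGF between H1975–OR and H1975 kept their direction and an adjusted p under 0.05 in every alternative in which they were tested. With at least 10 counts in every library, 1 member (HBEGF) was called, since the other 4 were not tested. EGFR passed with DESeq2 (log2 fold change −0.68, adjusted p = 0.0255), and TGFA without Sample 2a (−6.17, adjusted p = 0.0421). With the replicate letter as a block, 5 members were again called between the lines, and 0 in every other comparison. For both agents against 1,25(OH)2D3, 1 member (AREG) was called with DESeq2 and 1 (AREG) with the quasi-dispersions of edgeR 4. Among the named pathway genes, the calls of ETV1 and ERRFI1 were lost in 11 of 17 and 10 of 21 alternatives, and that of SH3KBP1 with all 14 libraries in one fit (adjusted p = 0.126). Depth limits several members in H1975–OR. Single libraries there held at most 4 counts of TGFA, 10 of EPGN, 23 of ERBB3, and 29 of AREG. For ERBB4, BTC, and EREG the highest were 34, 36, and 41 counts.

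Of 952 alternative values of single members, 66 turned in sign, none of them called, and the cause was not tested. For 1,25(OH)2D3 against vehicle, keeping Sample 3a gave 0.48 for ERBB3 and −0.24 for HBEGF. HBEGF was −0.04 with the replicate block, −0.17 with the block in 11 libraries, and −0.16 without letter a, and ERBB2 −0.08 with the block in 11 libraries. For osimertinib against vehicle without letter a, ERBB3 was −0.16 and BTC −0.01. The difference of the 1,25(OH)2D3 effects with Sample 3a was −0.05 for EGFR, 0.03 for EREG, and 0.14 for HBEGF. With the replicate block it was 0.17 for ERBB2, 0.42 for ERBB4, and 0.06 for HBEGF, and for HBEGF also 0.06 without letter a.

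Leaving out each library in turn gave these ranges of the log2 fold change. Between the lines, ERBB2 ran from −0.06 to 0.27. With 1,25(OH)2D3, ERBB3 ran from −2.59 to 0.83, ERBB4 from −0.93 to 0.49, HBEGF from −0.21 to 0.49, and TGFA from −4.17 to 0.00. With osimertinib, HBEGF ran from −0.57 to 0.09 and BTC from −0.13 to 0.25. For both agents against osimertinib, ERBB2 ran from −0.27 to 0.38, ERBB4 from −0.98 to 0.07, EREG from −0.29 to 1.58, and HBEGF from −0.38 to 0.16. For both against 1,25(OH)2D3, ERBB3 ran from −1.19 to 1.77 and ERBB4 from −0.28 to 1.28. The difference of the effects ran from −0.14 to 0.22 for EGFR, −0.53 to 0.12 for ERBB2, −2.26 to 1.13 for ERBB3, −0.92 to 0.64 for ERBB4, −1.23 to 0.68 for EREG, and −0.61 to 0.10 for HBEGF.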
